A study of Mus musculus with 6 samples.

Results

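A set of 44 mouse genes for lysosomal enzymes, lysosomal membrane proteins and their transcription factors was chosen by listed gene symbol, and the 44 were found among the 15803 genes of the expression table. The study sequenced poly(A) RNA of the growth plate at embryonic day 18.5 (E18.5) in 6 libraries. Hnrnpk fl/fl embryos gave the 3 libraries labelled WT, and embryos of the genotype Col2a1-Cre;Hnrnpk fl/fl gave the 3 labelled CKO. In the latter, Cre made under the Col2a1 promoter, which acts in chondrocytes, removes loxP-flanked exons of Hnrnpk. Cells of the tissue in which this Cre was never made keep the gene. Embryos of both sexes with littermate controls were used, and the labels do not state whether each library came from a separate embryo, so p-values measure the spread between these libraries. The value of a gene is its reads per 1000000 reads of the library (CPM), and values of libraries are given in the order of their numbers. All 44 genes averaged 1 CPM or more over the 6 libraries, the limit for testing, which 12155 genes passed. SE stands for the standard error of a log2 fold change, which is CKO minus WT.

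Lysosomes are acidic organelles in which hydrolases break down proteins, glycans and lipids that arrive by endocytosis, phagocytosis or autophagy. Most of these enzymes are tagged with mannose 6-phosphate in the Golgi and carried to the lysosome by receptors, a proton pump keeps the lumen acidic, and transporters in the membrane return the products to the cytosol. In cartilage the lysosome matters for the turnover of proteoglycans, and inherited loss of single enzymes of glycosaminoglycan breakdown causes storage diseases with abnormal growth of the skeleton.

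The recovered reads numbered 1379674, 1332542 and 1183743 in WT 1, 2 and 3 and 1454094, 1385468 and 1153871 in CKO 1, 2 and 3. At this depth 1 read was worth 0.688 to 0.867 CPM, and 3 reads, the floor used for detection, 2.06 to 2.60 CPM. Floors cover counting error only. Hnrnpk itself overlapped between the genotypes, with 842, 955 and 944 CPM across WT 1 to 3 and 759, 949.9 and 780.0 CPM across CKO 1 to 3 (log2 fold change -0.14, limma adjusted p = 0.622). A value of the whole gene can include exons outside the loxP sites and cells without this Cre, so it cannot settle the labels. The libraries are therefore called by their labels. In CKO embryos of an earlier stage the paper reports loss of the protein in the growth plate by western blot and immunostaining. Without CKO 2, which lay within the WT range, the other 2 libraries labelled CKO were below all labelled WT, and the log2 fold change was -0.25 (limma adjusted p = 0.226). The labelled cell type was present in every library, since the 14 chondrocyte markers summed to 19904, 20996 and 28698 CPM across WT 1 to 3 and 5736, 7244 and 5689 CPM across CKO 1 to 3.

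The libraries labelled CKO were not equally far apart. Over genes with at least 20 reads in a pair of libraries, the mean chi-square per gene, for which sampling alone gives a value near 1, was 1.29 between CKO 1 and CKO 3. It was 13.1 and 14.2 between CKO 2 and these libraries, 2.06 between WT 1 and WT 2, and 8.65 and 9.43 between WT 3 and the other libraries labelled WT. CKO 2 stood apart in the lysosomal genes as well. Its value was below both CKO 1 and CKO 3 in 29 of 44 genes (65.9%), against 37.6% of all genes tested, and it was the lowest of the 6 libraries in 23 of 44 (52.3%), against 20.3%. The median log2 difference of CKO 2 from the mean of CKO 1 and CKO 3 was -0.40 over the lysosomal genes and 0.03 over all genes tested. In 5 of 44 (11.4%) CKO 2 lay within the WT range while CKO 1 and CKO 3 lay outside it on the same side, against 9.81% of all genes tested. Those genes were Lamp1, Naglu, Galns, Tpp1 and Tfe3, which were named after their values were seen. The counts of calls over the 44 genes and the fold changes of genes described singly are therefore given with and without CKO 2. Calls past the adjusted threshold are also given with CKO 1 and CKO 3 averaged as 1 sample. Without CKO 2 the CKO side is CKO 1 and CKO 3 alone, which differed by little more than sampling. Adjusted p-values without CKO 2 can therefore be too small for a difference between embryos.

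**Figure D1:**
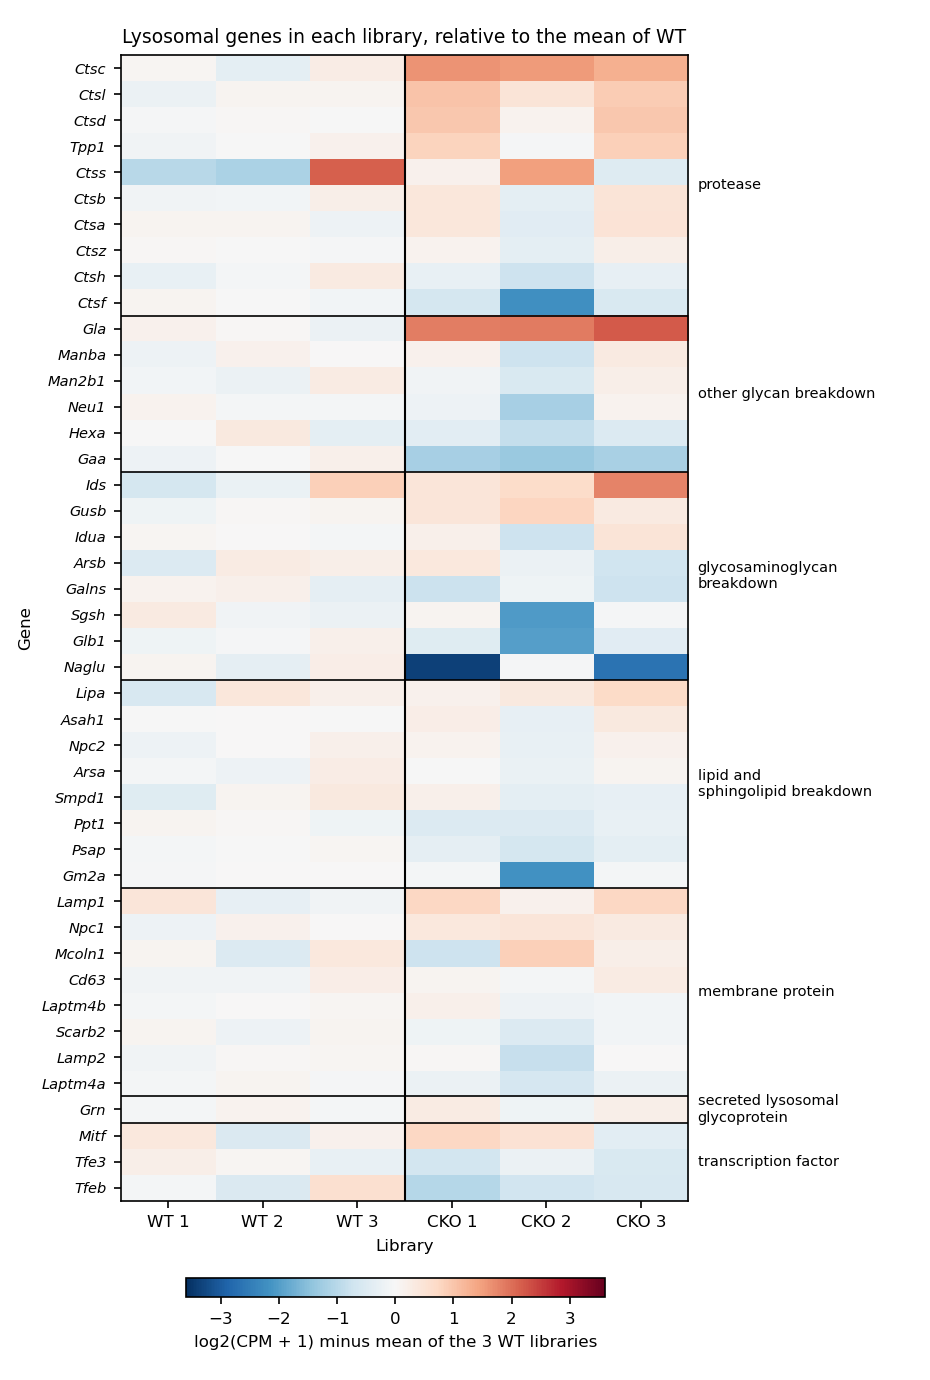
Each cell is log2(CPM + 1) of a gene in a library minus the mean of the 3 libraries labelled WT, with genes in groups by role. Gla and Ctsc are high and Gaa is low in all 3 libraries labelled CKO, while CKO 2 differs from CKO 1 and CKO 3 in Naglu, Gm2a, Ctsf, Glb1, Sgsh and Ctsd.

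With limma on log2(CPM + 1) and Benjamini-Hochberg adjustment over all 12155 genes, 3 of 44 lysosomal genes were higher in CKO at an adjusted p under 0.05 (Ctsc, Ctsl and Gla, 6.82%) and 1 was lower (Gaa, 2.27%). Among all genes tested 3.18% were higher and 2.6% lower by that rule. Shares that rest on 3 genes and on 1 are not read as a difference from that background. The criterion of the study, a log2 difference of more than 1 either way with a p under 0.05, was applied here to the unadjusted p of limma. It gave 2 higher (Ctsc and Gla, and also Ctss and Ids without WT 3) and 3 lower (Ctsf, Gaa and Naglu), where 5.3% and 5.1% of all genes passed. Without CKO 2 it gave 2 higher (Ctsc and Gla) and 2 lower (Gaa and Naglu), where 5.61% and 6.7% passed. The libraries of the genotypes did not overlap in 6 genes that were higher in CKO (Ctsc, Ctsd, Ctsl, Gla, Gusb and Npc1, 13.6%, against 14.5% of all genes). They did not overlap in 10 that were lower (Ctsf, Ctsh, Laptm4a, Gaa, Glb1, Hexa, Psap, Gm2a, Ppt1 and Tfeb, 22.7%, against 13.2%). Without CKO 2 there was no overlap in 15 that were higher (34.1%, against 23% of all genes) and 13 that were lower (29.5%, against 20.8%), where 1 library fewer also leaves less to overlap. Without CKO 2, 5 were higher past the adjusted threshold (Ctsc, Ctsd, Ctsl, Gla and Tpp1) and 2 lower (Gaa and Naglu), where 5.74% and 5.03% of all genes were called. With CKO 1 and CKO 3 averaged, 1 was higher (Gla) and 1 lower (Gaa), where 1.14% and 0.987% of all genes were called. Without WT 1, WT 2, CKO 1 or CKO 3, the count of higher genes was also 1 (Gla). The median log2 fold change of the 44 genes was -0.05, against 0.01 for all genes tested, and it was 0.03 without CKO 2. Of the 44, 19 (43.2%) had a log2 fold change above 0, against 50.8% of all genes tested. Without CKO 2, 25 (56.8%) did, against 50.2%. The 44 genes thus lay on both sides of 0, and on which side their median lay depended on CKO 2. Both medians were small beside the SD of 0.23 of the members' median log2 value between libraries labelled CKO. In bulk tissue, fewer cells of a type and less RNA per cell cannot be told apart. For genes with few reads, a fold change on log2(CPM + 1) is smaller than the ratio of their reads.

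**Figure D2:**
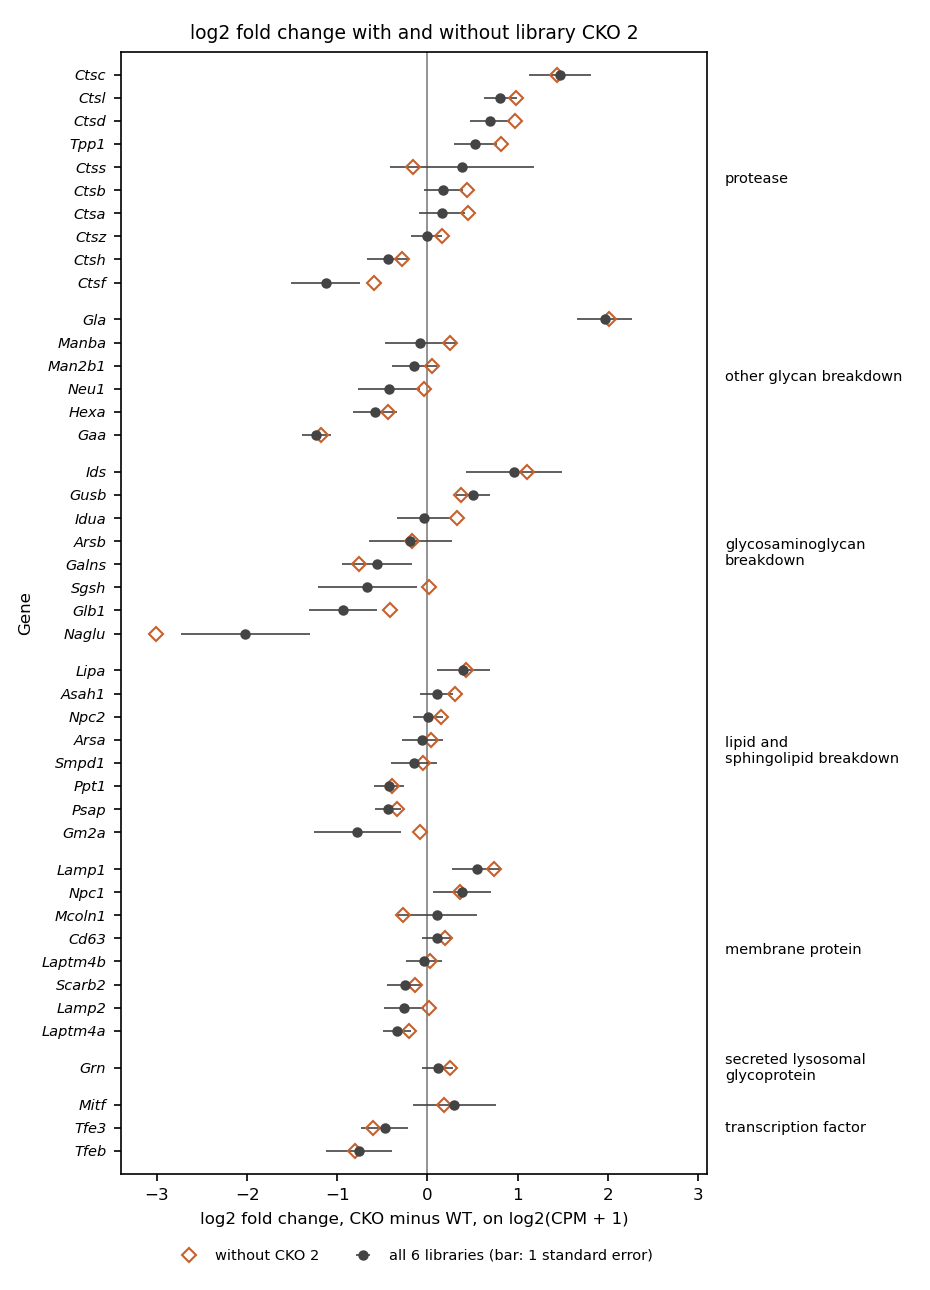
Points give the log2 fold change of CKO against WT on log2(CPM + 1) with bars of 1 standard error, and open diamonds give the value without CKO 2. Gla (1.97) and Gaa (-1.23) keep their place without CKO 2, Naglu moves from -2.02 to -3.01 and Gm2a from -0.78 to -0.08.

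Summed over the 44 genes, the level was 11886, 12723 and 13336 CPM across WT 1 to 3 and 15479, 10471 and 15793 CPM across CKO 1 to 3, or 12649 ± 728 in WT and 13914 ± 2986 in CKO (mean ± SD, n = 3 libraries each). This is 1.05% to 1.58% of a library. CKO 1 and CKO 3 were the highest libraries and CKO 2 the lowest, so the genotypes overlapped. Ctsd, the aspartic protease cathepsin D, made up 19.9%, 19.9% and 18.1% of the sum in WT 1, 2 and 3 and 31.1%, 25.5% and 30.3% in CKO 1, 2 and 3. Without Ctsd the sums were 9523, 10192 and 10917 CPM against 10666, 7799.5 and 11015 CPM. CKO 1 lay within the WT range of that remainder, CKO 3 just above it and CKO 2 below it.

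Levels of different genes were compared per kilobase of annotated exon. Of the 44, the 5 highest means in WT, in CPM per kilobase (± SD, n = 3 libraries), were Laptm4a at 1304 ± 85.8, Ctsd at 1037 ± 36.4, Cd63 at 443 ± 66.3, Psap at 382 ± 20.03 and Ctsz at 229 ± 6.87. Each neighbouring pair in that order was farther apart than the SD of either gene, except Cd63 and Psap, which were apart by less than the SD of Cd63. The next gene, Ctsb at 213 ± 28.9, was apart from Ctsz by less than its own SD. At the low end Npc1, the cholesterol exporter (0.591 ± 0.0756), Arsb (0.602 ± 0.211), Mitf (0.621 ± 0.234) and Ids (0.628 ± 0.467) were apart by less than the SD of each, so their order is not given a meaning. This order is that of WT, and in each library labelled CKO Ctsd was above Laptm4a, with means of 1739 and 1041.

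**Figure D3:**
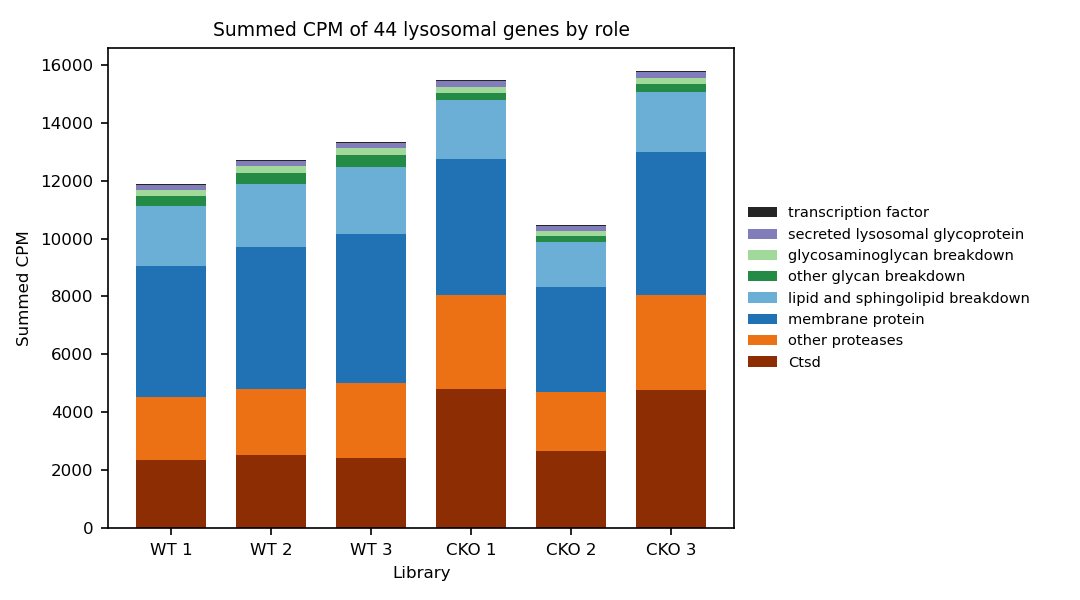
Bars stack the summed CPM of the 44 genes in each library by role, with Ctsd apart from the other proteases. CKO 1 and CKO 3 exceed the libraries labelled WT mainly by Ctsd, and CKO 2 is the lowest library.

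The MiT transcription factors (Tfeb, Tfe3 and Mitf) are known to activate many lysosomal genes through promoter motifs that contain CACGTG. Promoters of 38 of the 44 genes were matched by symbol in the RefSeq table of build GRCm38.p6 (not matched: Asah1, Ctsb, Ctsh, Galns, Laptm4b and Npc1). The 250 bases before each start were searched on both strands for CACGTG, which is its own reverse complement, and for TCACGTG, which contains it, so that a match of the latter is also a match of the former. CACGTG was found for 12 genes (Arsa, Ctsa, Ctsd, Ctsf, Ctsl, Gaa, Gla, Glb1, Lamp1, Mcoln1, Naglu and Sgsh), in 12 of the 45 windows of the matched genes (26.7%), against 6.02% of all 32851 windows of that length. TCACGTG was found in 10 windows (22.2%), against 3.13% of all windows. Of the 12 genes with CACGTG, 6 had a log2 fold change above 0 and 6 below 0. Gla was the highest of them and Naglu the lowest, and the windows of Gla and Ctsd held 2 matches each. A match describes the sequence and was not tested for binding. The windows of Gaa and Ctsd, genes that differ in direction, are shown for their match, and that of Ctsc, higher in CKO, for its lack of one. They are 5′ to 3′ on the strand of the gene, cut to bases before the first annotated exon, with CACGTG in capitals. The stretch of Ctsd that is shown holds 1 of its 2 matches. The far end of the window of Gla lies in an exon of Hnrnph2, so that no stretch of it is shown. Of its 250 bases, 197 lie in exons of Gla or Hnrnph2, and its 2 matches begin 227 and 194 bases before the start, toward that far end. Gaa is on the plus strand at chr11:119267713-119267886, Ctsd on the minus strand at chr7:142388039-142388077 and Ctsc on the plus strand at chr7:88277835-88278084.
Gaa: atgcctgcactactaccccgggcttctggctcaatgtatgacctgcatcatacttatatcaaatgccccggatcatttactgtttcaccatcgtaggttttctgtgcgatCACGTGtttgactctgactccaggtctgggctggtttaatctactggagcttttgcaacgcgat
Ctsd: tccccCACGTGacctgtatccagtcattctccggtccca
Ctsc: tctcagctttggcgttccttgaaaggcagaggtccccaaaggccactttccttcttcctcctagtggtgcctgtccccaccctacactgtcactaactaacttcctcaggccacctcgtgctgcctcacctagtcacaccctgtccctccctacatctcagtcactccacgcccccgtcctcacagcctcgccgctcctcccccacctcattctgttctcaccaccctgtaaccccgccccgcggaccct

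Among the 10 proteases, 2 passed the adjusted threshold and both were higher in CKO, where 3.18% of all genes were. Without CKO 2, 4 were higher (Ctsc, Ctsd, Ctsl and Tpp1), where 5.74% of all genes were, while the calls of Ctsc and Ctsl were both lost with CKO 1 and CKO 3 averaged or with a replicate block. The median log2 fold change was 0.28 (0.44 without CKO 2). Ctsl (ENSMUSG00000021477, minus strand, chr13:64359337-64370890 of GRCm38) encodes cathepsin L, a cysteine endopeptidase of the lysosome. Its level was 310.2, 383 and 385 CPM across WT 1 to 3, against 735, 492 and 680.3 CPM across CKO 1 to 3. All 3 libraries labelled CKO were above those labelled WT, CKO 2 least so. The means were 359.6 ± 42.8 CPM in WT and 636 ± 127 CPM in CKO (mean ± SD, n = 3 libraries each), and the rise was 0.81 on the log2 scale (SE 0.18, limma adjusted p = 0.0309). Without CKO 2 the rise was 0.98 (limma adjusted p = 0.00200). The adjusted p was above 0.05 with a replicate block (0.0683), without WT 1 (0.141), WT 2 (0.1001), CKO 1 (0.134) or CKO 3 (0.133), and with CKO 1 and CKO 3 averaged (0.133). Over the 15 alternatives the adjusted p was 0.00200 to 0.141, and edgeR and DESeq2 kept the call.

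Ctsc (ENSMUSG00000030560, plus strand, chr7:88278085-88310888) encodes cathepsin C, a dipeptidyl peptidase that activates serine proteases of immune cells. It stood at 4.35, 3.002 and 5.07 CPM across WT 1 to 3, against 14.4, 13.7 and 11.3 CPM across CKO 1 to 3, or 6, 4 and 6 reads, against 21, 19 and 13 reads. The genotypes did not overlap, at counts that are low in every library. Ctsc rose by 1.47 on the log2 scale (SE 0.35, limma adjusted p = 0.0354), and without CKO 2 by 1.44 (limma adjusted p = 0.0456). Its call was lost without WT 1 (0.105), WT 2 (0.123), CKO 1 (0.133) or CKO 3 (0.0994), with CKO 1 and CKO 3 averaged (0.105), with a replicate block (0.0851), with no filter (0.0518) and by DESeq2 (0.109), within a range of adjusted p from 0.0243 to 0.133 over 14 alternatives.

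Ctsd (ENSMUSG00000007891, minus strand, chr7:142375911-142388038), just outside the threshold, measured 2363, 2531 and 2419 CPM across WT 1 to 3, against 4813, 2671 and 4778 CPM across CKO 1 to 3. CKO 1 and CKO 3 stood far above the libraries labelled WT, and CKO 2 lay slightly above the highest of them. The difference was 0.70 on the log2 scale (SE 0.22, limma adjusted p = 0.0923) and 0.98 (limma adjusted p = 0.000490) without CKO 2, where Ctsd passed the threshold. DESeq2 also called it (adjusted p = 0.0395). Over the 15 alternatives the adjusted p was 0.000490 to 0.296, the largest with CKO 1 and CKO 3 averaged (log2 fold change 0.55). Tpp1, the tripeptidyl peptidase, was chosen after its values were seen because it follows the same pattern. It measured 109, 117 and 133 CPM across WT 1 to 3, against 207, 115 and 217 CPM across CKO 1 to 3. CKO 2 lay within the WT range, and the log2 difference was 0.53 (SE 0.24, limma adjusted p = 0.233). Without CKO 2 it was 0.82 (limma adjusted p = 0.00708), and with CKO 1 and CKO 3 averaged 0.39 (limma adjusted p = 0.508). The adjusted p ranged from 0.00708 to 0.520.

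Ctsf, a cysteine protease of the papain family, was lower by the criterion of the study. It measured 82.6, 76.5 and 71.8 CPM across WT 1 to 3, against 49.5, 15.9 and 52.0 CPM across CKO 1 to 3. The genotypes did not overlap, and CKO 2 was far below the other libraries. The log2 fold change was -1.13 (SE 0.38, limma adjusted p = 0.118, unadjusted p = 0.0139), and it was -0.59 (limma adjusted p = 0.0565) without CKO 2, no longer past the criterion, with an adjusted p of 0.0565 to 0.292 over the alternatives. Ctsz, a carboxypeptidase among the 5 highest of the 44 genes per kilobase in WT, measured 341, 329 and 321 CPM across WT 1 to 3, against 362, 258 and 379 CPM across CKO 1 to 3. Its genotypes overlapped (log2 fold change -0.01, SE 0.17, limma adjusted p = 0.987, 0.16 without CKO 2), and CKO 2 was the lowest library. Ctss, the cathepsin of antigen-presenting cells, was chosen after its values were seen for its spread within a genotype. It measured 5.07, 4.50 and 52.4 CPM across WT 1 to 3, against 12.4, 32.5 and 7.80 CPM across CKO 1 to 3. WT 3 and CKO 2 were high and the other libraries low, and the difference between genotypes was 0.38 on the log2 scale (SE 0.80, limma adjusted p = 0.829) and -0.16 (limma adjusted p = 0.929) without CKO 2, in a range of adjusted p from 0.169 to 0.965. Without WT 3 the log2 fold change of Ctss was 1.45, past the criterion of the study (limma adjusted p = 0.169). The remaining proteases, Ctsa, Ctsb and Ctsh, had log2 fold changes of 0.16, 0.18 and -0.44, and none of them passed. Without CKO 2 these were 0.45 (limma adjusted p = 0.131), 0.44 (limma adjusted p = 0.0608) and -0.28 (limma adjusted p = 0.442).

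**Figure D4:**
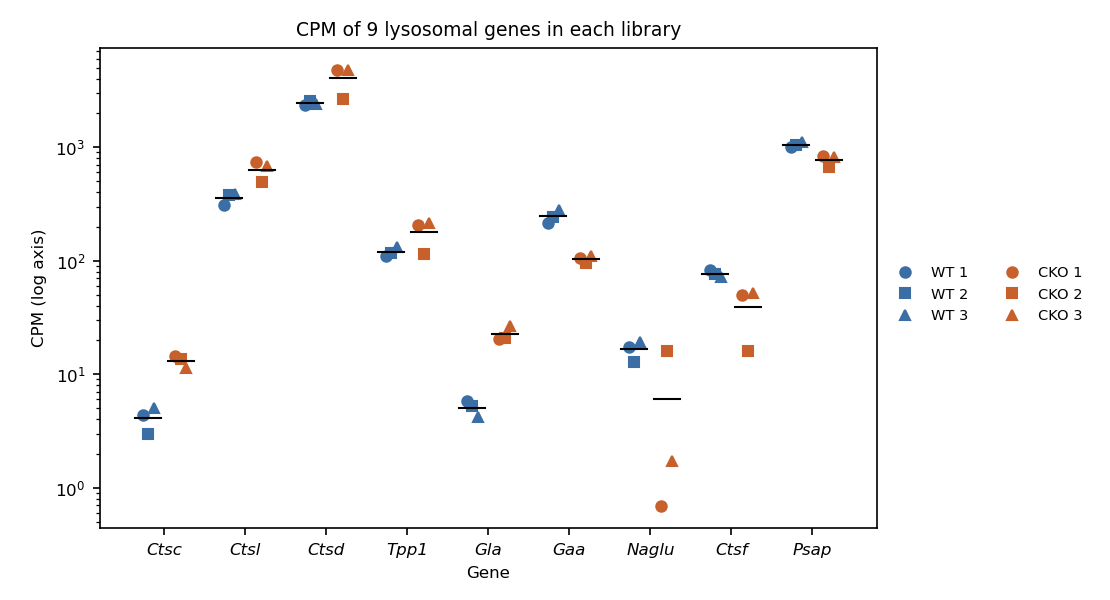
Points give the CPM of each library on a log axis for 9 genes, with a bar at the mean of each genotype. Genotypes are apart in Ctsc, Ctsl, Gla, Gaa, Ctsf and Psap, CKO 2 is close to WT in Ctsd and Tpp1, and in Naglu CKO 2 (15.9 CPM) stands with WT while CKO 1 (0.688 CPM) and CKO 3 (1.73 CPM) do not.

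The cystatins inhibit cysteine proteases such as cathepsin L, and 3 of 4 listed were in the table (Cst7 was not listed in it). Cstb, which acts in the cytosol, measured 223, 213 and 208 CPM across WT 1 to 3, against 426, 410.0 and 421 CPM across CKO 1 to 3. All libraries labelled CKO were above all labelled WT with little spread, and Cstb rose by 0.96 on the log2 scale (SE 0.14, limma adjusted p = 0.00429), past the threshold in each of the 15 alternatives (8.24e-05 to 0.0336), with 0.98 without CKO 2. Cst6, a secreted inhibitor, measured 10.1, 9.76 and 12.7 CPM across WT 1 to 3, against 27.5, 147 and 31.2 CPM across CKO 1 to 3. It rose by 2.12 (SE 0.53, limma adjusted p = 0.0436), and by 1.36 (limma adjusted p = 0.0132) without CKO 2, which held the highest value. The call of Cst6 was lost without WT 1 (0.149), WT 2 (0.151), WT 3 (0.0776) or CKO 3 (0.0714), with CKO 1 and CKO 3 averaged (0.0577), with a replicate block (0.0561), with a pseudocount of 0.1 CPM (0.0554) and by limma-voom (0.113), in a range of adjusted p from 0.000181 to 0.151. Cst3, the secreted cystatin C and the most abundant of the list by CPM, was chosen after its values were seen. It measured 1774, 1746 and 1675 CPM across WT 1 to 3, against 1499.9, 752 and 1409 CPM across CKO 1 to 3, and its lower values in CKO did not pass (log2 fold change -0.57, SE 0.24, limma adjusted p = 0.196). CKO 2 was its lowest library, and without it the log2 fold change was -0.25 (limma adjusted p = 0.183).

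Of the 6 enzymes of other glycan breakdown, 1 was higher and 1 lower past the adjusted threshold, where 3.18% and 2.6% of all genes were. These calls were kept in each of the 15 alternatives. Gla (ENSMUSG00000031266, minus strand, chrX:134588149-134601125) encodes alpha-galactosidase A, which removes terminal galactose from glycolipids and is deficient in Fabry disease. It measured 5.80, 5.25 and 4.22 CPM across WT 1 to 3, against 20.6, 20.9 and 26.9 CPM across CKO 1 to 3, or 8, 7 and 5 reads, against 30, 29 and 31 reads. Every library labelled CKO was above every library labelled WT, and the means were 5.09 ± 0.800 CPM in WT and 22.8 ± 3.52 CPM in CKO (mean ± SD, n = 3 libraries each), a 4.48-fold difference. Gla rose by 1.97 on the log2 scale (SE 0.30, limma adjusted p = 0.00557), and by 2.02 (limma adjusted p = 0.00513) without CKO 2, with an adjusted p of 0.00363 to 0.0419 over the alternatives.

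Gaa (ENSMUSG00000025579, plus strand, chr11:119267887-119285454) encodes acid alpha-glucosidase, which breaks down glycogen in the lysosome and is deficient in Pompe disease. Its level was 216, 244 and 278 CPM across WT 1 to 3, against 106, 95.996 and 109 CPM across CKO 1 to 3. The libraries labelled CKO were close together and all were below those labelled WT. The means were 246 ± 31.02 CPM in WT and 104 ± 6.87 CPM in CKO (mean ± SD, n = 3 libraries each), so that CKO stood at 42.2% of WT. Gaa fell by 1.23 on the log2 scale (SE 0.16, limma adjusted p = 0.00314), with -1.18 (limma adjusted p = 0.00126) without CKO 2, and a largest adjusted p of 0.0255 over the alternatives. The other 4 enzymes of the group, Hexa, Man2b1, Manba and Neu1, had log2 fold changes from -0.58 to -0.08, and without CKO 2 these were -0.44, 0.05, 0.25 and -0.04. The summed level of the group, with Gaa as its most abundant gene, was 348, 385 and 409 CPM across WT 1 to 3 and 236, 189.8 and 261 CPM across CKO 1 to 3, lower in CKO without overlap. Without Gaa the sums overlapped, at 132, 141 and 131 against 130.0, 93.8 and 152 CPM.

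The 8 enzymes of glycosaminoglycan breakdown take apart heparan, dermatan, keratan and chondroitin sulfate. Here limma called 0 of 8, with 3 at an unadjusted p under 0.05, and edgeR, DESeq2 and limma-voom each called 0 of the 5 they tested, and the median log2 fold change was -0.37 (-0.08 without CKO 2). Counts at an unadjusted p under 0.05, here and below, are given without the share of all genes and are not read as a result. Naglu (ENSMUSG00000001751, plus strand, chr11:101070012-101077672), the N-acetylglucosaminidase of heparan sulfate breakdown, was lower by the criterion of the study. It measured 17.4, 12.8 and 19.4 CPM across WT 1 to 3, against 0.688, 15.9 and 1.73 CPM across CKO 1 to 3, or 24, 17 and 23 reads, against 1, 22 and 2 reads. CKO 1 and CKO 3 were under the floor of 3 reads, while CKO 2 lay within the WT range, so that the genotypes overlapped. The log2 fold change was -2.02 (SE 0.71, limma adjusted p = 0.133, unadjusted p = 0.0173). Without CKO 2 it was -3.01 (limma adjusted p = 0.00177), past the threshold, and over its alternatives the adjusted p was 0.00177 to 0.333. It no longer passed the criterion without WT 1, WT 3, CKO 1 or CKO 3, where the log2 fold changes were -1.97, -1.90, -1.35 and -1.70, nor with CKO 1 and CKO 3 averaged (-1.50), edgeR (-1.43) or DESeq2 (-1.46). The other 7 enzymes ranged from -0.93 in Glb1, the beta-galactosidase, to 0.96 in Ids, the iduronate sulfatase. Gusb, the beta-glucuronidase, was higher and Glb1 lower in CKO with no overlap, and neither passed the adjusted threshold (log2 fold change 0.51 and -0.93, limma adjusted p = 0.154 and 0.189). Glb1 met the criterion of the study without CKO 1 (-1.19) or CKO 3 (-1.20), with these averaged and with limma-voom, and Ids met it without WT 3 (1.39). Without CKO 2 the log2 fold changes of Glb1, Gusb and Ids were -0.41, 0.38 and 1.11. The group's summed level, 202, 210.1 and 227 CPM across WT 1 to 3 and 211, 191 and 222 CPM across CKO 1 to 3, overlapped between genotypes.

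For lipid and sphingolipid breakdown limma called 0 of 8, with 2 at an unadjusted p under 0.05, and edgeR, DESeq2 and limma-voom each called 0 of the 8 they tested. Log2 fold changes ranged from -0.78 to 0.40 with a median of -0.10 (-0.005 without CKO 2). Psap (ENSMUSG00000004207, plus strand, chr10:60277627-60302597), the precursor of the saposins that present sphingolipids to their enzymes, was nearest to the threshold. It measured 1000.2, 1037 and 1108 CPM across WT 1 to 3, against 831, 669.8 and 826 CPM across CKO 1 to 3. All libraries labelled CKO were below all labelled WT, and the log2 fold change was -0.44 (SE 0.15, limma adjusted p = 0.110), with -0.34 (limma adjusted p = 0.0886) without CKO 2 and 0.0596 to 0.249 over the alternatives. Gm2a, the activator of ganglioside GM2 breakdown, was chosen after its values were seen because 1 library set its fold change. It measured 38.4, 39.8 and 39.7 CPM across WT 1 to 3, against 37.1, 7.94 and 37.3 CPM across CKO 1 to 3. CKO 1 and CKO 3 were close to the lowest library labelled WT and CKO 2 was far below, so the log2 fold change of -0.78 (SE 0.48, limma adjusted p = 0.388) was -0.08 (limma adjusted p = 0.849) without CKO 2, in a range of adjusted p from 0.298 to 0.849. Ppt1, the palmitoyl-protein thioesterase, was also lower in CKO without overlap (-0.43, SE 0.17, limma adjusted p = 0.172, -0.39 without CKO 2). The other members, Npc2, Asah1, Lipa, Smpd1 and Arsa, overlapped between genotypes, though without CKO 2 Asah1 was higher in CKO with no overlap (0.30, limma adjusted p = 0.159).

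Of the 8 membrane proteins, limma called 0, with 0 at an unadjusted p under 0.05, and edgeR, DESeq2 and limma-voom each called 0 of the 8 they tested. Log2 fold changes ranged from -0.33 in Laptm4a to 0.55 in Lamp1. Laptm4a, a small transmembrane protein of late endosomes and lysosomes and the highest of the 44 genes per kilobase in WT, measured 2197, 2484 and 2253 CPM across WT 1 to 3, against 2009.5, 1519 and 2011 CPM across CKO 1 to 3. The genotypes did not overlap, with CKO 2 lowest, and the difference did not pass (log2 fold change -0.33, SE 0.16, limma adjusted p = 0.247, -0.20 without CKO 2). Cd63, a tetraspanin, measured 1489, 1489 and 1912 CPM across WT 1 to 3, against 1732, 1528 and 1980.3 CPM across CKO 1 to 3. WT 3 and CKO 3 were the highest libraries and the genotypes overlapped (log2 fold change 0.10, SE 0.16, limma adjusted p = 0.765, 0.19 without CKO 2). The structural proteins Lamp1 and Lamp2 differed by 0.55 and -0.26 on the log2 scale, the calcium channel Mcoln1 by 0.11 and Npc1 by 0.38, none past the threshold. Without CKO 2 these 4 values were 0.74, 0.02, -0.27 and 0.36, so the direction of Lamp2 and Mcoln1 depended on that library. Grn, the secreted glycoprotein progranulin that is also delivered to lysosomes, differed by 0.11 (SE 0.17, limma adjusted p = 0.746, 0.25 without CKO 2).

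For the MiT transcription factors limma called 0 of 3, with 0 at an unadjusted p under 0.05, and edgeR, DESeq2 and limma-voom each called 0 of the 2 they tested. Tfeb measured 11.6, 8.25 and 18.6 CPM across WT 1 to 3, against 5.50, 7.22 and 7.80 CPM across CKO 1 to 3, or 16, 11 and 22 reads, against 8, 10 and 9 reads. All libraries labelled CKO were below all labelled WT by few reads, and the log2 fold change of -0.76 did not pass (SE 0.37, limma adjusted p = 0.268, -0.80 without CKO 2), though without WT 2 it was -1.01 and met the criterion of the study. Tfe3 measured 28.3, 25.5 and 20.3 CPM across WT 1 to 3, against 15.1, 20.9 and 16.5 CPM across CKO 1 to 3. CKO 2 lay within the WT range, and the log2 fold change was -0.47 (SE 0.26, limma adjusted p = 0.330), with -0.60 (limma adjusted p = 0.186) without CKO 2 and 0.186 to 0.588 over the alternatives. Mitf measured 5.07, 2.25 and 4.22 CPM across WT 1 to 3, against 6.88, 5.77 and 2.60 CPM across CKO 1 to 3, and its genotypes overlapped at 3 to 10 reads (log2 fold change 0.30, SE 0.46, limma adjusted p = 0.759, 0.18 without CKO 2). These are levels of RNA, and the place of the proteins in the cell, which controls their activity, was not measured.

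Another 162 genes of the lysosome and its pathways, in 10 lists, were examined for comparison, of which 146 were tested. Past the adjusted threshold 3 were higher in CKO (2.05%) and 2 lower (1.37%), against 3.18% and 2.6% of all genes, and the median of their log2 fold changes was 0.07. Without CKO 2, 15 were higher (10.3%) and 4 lower (Abcb9, Acp2, Atp6v0a4 and Gnptg, 2.76%), against 5.74% and 5.03% of all genes. With CKO 1 and CKO 3 averaged, 2 were higher and 1 lower, where 1.14% and 0.987% of all genes were called. With limma, 1 was lower without CKO 1 or CKO 3 (Atp6v0a4), and neither of the lower genes, Acp2 and Atp6v0a4, was called without WT 1, WT 2 or WT 3. In the V-ATPase, the proton pump, 22 genes were tested with a median of 0.26 (0.44 without CKO 2), and 1 was lower. Without CKO 2, 3 were higher (Atp6v0c, Atp6v1d and Atp6v1e1) and 1 lower. The lower gene, Atp6v0a4, a tissue-restricted subunit of the membrane sector, measured 18.8, 27.0 and 34.6 CPM across WT 1 to 3, against 6.88, 0.722 and 5.20 CPM across CKO 1 to 3. Its libraries labelled CKO were all below those labelled WT (log2 fold change -2.63, SE 0.54, limma adjusted p = 0.0212). Atp6v0a4 was past the threshold without CKO 2 as well (-1.95), though not without WT 1 (0.0680), WT 2 (0.0946) or WT 3 (0.0636), in a range of 0.000547 to 0.0946.

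Acp2, a lysosomal acid phosphatase and the call of the list of lipid enzymes and phosphatases (9 tested), measured 47.1, 40.5 and 46.5 CPM across WT 1 to 3, against 21.3, 23.8 and 26.9 CPM across CKO 1 to 3. The genotypes did not overlap, and Acp2 fell by 0.87 on the log2 scale (SE 0.22, limma adjusted p = 0.0423), with -0.87 (limma adjusted p = 0.0301) without CKO 2. Its call was lost without WT 1 (0.153), WT 2 (0.113), WT 3 (0.0887), CKO 1 (0.151) or CKO 3 (0.103), with CKO 1 and CKO 3 averaged (0.117), with a replicate block (0.105) and by DESeq2 (0.0798), over a range of 0.0295 to 0.153. Cd68, a heavily glycosylated membrane protein of lysosomes, was the call of the further membrane proteins (25 tested) and measured 8.70, 6.75 and 11.8 CPM across WT 1 to 3, against 76.3, 46.9 and 76.3 CPM across CKO 1 to 3. Every library labelled CKO was above every library labelled WT, and Cd68 rose by 2.74 (SE 0.29, limma adjusted p = 0.00114, 2.97 without CKO 2), past the threshold in each of the 15 alternatives, with a largest adjusted p of 0.0120.

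The other lists held no call by limma. Of 28 autophagy genes limma called 0, with 6 at an unadjusted p under 0.05, and edgeR, DESeq2 and limma-voom each called 0 of the 25, 26 and 25 they tested. Without CKO 2, 5 of them were higher (Atg12, Atg7, Gabarap, Map1lc3a and Map1lc3b), where 5.74% of all genes were. For mannose 6-phosphate tagging and sorting limma called 0 of 22 (4 unadjusted) and edgeR, DESeq2 and limma-voom 1 (Gnptg), 0 and 0 of the 18, 19 and 18 they tested. Of the genes of mTORC1 at the lysosome limma called 0 of 18 (2 unadjusted), of the further glycan enzymes 0 of 12 (1), of the further proteases 0 of 6 (1) and of the further regulators 0 of 1 (0), and edgeR, DESeq2 and limma-voom called 0 in each of these 4 lists, of which they tested 12 to 13, 9 to 10, 6 and 1 genes. Besides the genes named, those higher without CKO 2 were Aga, Pld3, Prcp and Vps29.

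Macrophages and osteoclasts are rich in lysosomes, so their markers were measured beside the lysosomal genes. The most abundant gene of a list is that with the highest mean over the 6 libraries. The macrophage list (17 of 18 in the table, Cd163 not listed in it) summed to 84.8, 84.8 and 346 CPM across WT 1 to 3 and 219, 255 and 227 CPM across CKO 1 to 3, with Lyz2 as its most abundant gene. WT 3 was the highest library, and the genotypes overlapped. Without Lyz2 the sums were 33.3, 30.02 and 76.03 against 108, 150.1 and 112 CPM, and without Cd68 as well they overlapped, at 24.6, 23.3 and 64.2 against 31.6, 103 and 35.5 CPM. Cd68, which is also on that list, was the 1 call of 12 tested, and without WT 3 Cd14 and Lyz2 were called higher as well. Ptprc and C1qa were chosen after their values were seen. The pan-leukocyte marker Ptprc had 0 reads in all libraries except CKO 2, with 1 read, and C1qa had at most 2 reads in any library. These genes do not stand for the list, which without Lyz2 and Cd68 was highest in CKO 2 (103 CPM) and WT 3 (64.2 CPM). Ctss, high in WT 3 and CKO 2, had 62 and 45 reads there. The osteoclast list (9 of 12 in the table, Dcstamp, Ocstamp and Calcr not listed in it) summed to 110.2, 115 and 125 CPM across WT 1 to 3 and 130.0, 147 and 141 CPM across CKO 1 to 3, with Ctsk as its most abundant gene. The libraries labelled CKO were slightly higher without overlap. Without Ctsk the sums overlapped through WT 3, at 22.5, 19.5 and 43.1 against 42.0, 39.0 and 39.9 CPM. Ctsk alone overlapped as well, since CKO 1 lay within its WT range, so the separation did not rest on that gene alone. Limma called 0 of 6 (1 at an unadjusted p under 0.05, and edgeR, DESeq2 and limma-voom each 0 of the 4 they tested), and 1 without WT 3 (Acp5). The part of these cells in the levels of Ctss, Ctsc, Cd68, Ctsl and Ctsd was not tested.

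Lists of the skeletal cells were measured as well. The chondrocyte list (14 of 14 in the table), given above, had 11 of 14 lower in CKO (12 without CKO 2), with Matn1 as its most abundant gene over all libraries and in WT, and Col2a1 in CKO. The hypertrophic list (5 of 5) summed to 1373, 1439 and 4499 CPM across WT 1 to 3 and 13352, 12324 and 14437 CPM across CKO 1 to 3, with 1 of 4 higher (Spp1, its most abundant gene) and 2 without CKO 2 (Mmp13 and Spp1). Without Spp1 the hypertrophic sums were 336, 344 and 729.9 against 2238, 447 and 2392 CPM, with CKO 2 inside the WT range and CKO 1 and CKO 3 above it. The osteoblast list (9 of 9) summed to 491, 545 and 710.5 CPM across WT 1 to 3 and 1316, 375 and 1411 CPM across CKO 1 to 3, with Col1a1 as its most abundant gene (Ibsp in CKO 1 and CKO 3). CKO 2 was the lowest library there while CKO 1 and CKO 3 were the highest, the order that the summed lysosomal genes also had. That order was not particular to osteoblast genes. The sums of the V-ATPase, autophagy and mTORC1 lists had it too, as did those of the further glycan enzymes and the further lipid enzymes and phosphatases. Limma called 0 of the 8 osteoblast genes (3 at an unadjusted p under 0.05, and edgeR, DESeq2 and limma-voom each 0 of the 4, 5 and 4 they tested), and 3 were higher without CKO 2 (Bglap, Bglap2 and Ibsp). The list of fibroblasts and perichondrium (8 of 8) summed to 3277, 3733 and 5304 CPM across WT 1 to 3 and 2543, 1261 and 2511 CPM across CKO 1 to 3, with Col3a1 as its most abundant gene, and 1 of 7 was lower (Dcn), with 2 without CKO 2 (Col3a1 and Dcn). Without Col3a1 and Dcn the fibroblast sums overlapped, at 562, 540 and 1076 against 763, 321 and 768 CPM. The part of these cell types in the lysosomal values, or in the difference of CKO 2 from CKO 1 and CKO 3, was not tested.

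The keratinocyte list (8 of 11 in the table, Krt5, Krt14 and Dsg1a not listed in it) summed to 56.5, 50.3 and 30.4 CPM across WT 1 to 3 and 217, 219 and 215 CPM across CKO 1 to 3, with 2 of 4 higher (Perp, the most abundant over all libraries and in CKO, and Sbsn), and Krt10 was the most abundant in WT. Without Perp and Sbsn the keratinocyte sums overlapped, at 40.6, 30.02 and 18.6 against 35.8, 57.7 and 38.1 CPM. The skeletal muscle list (10 of 10) summed to 69.6, 41.3 and 199 CPM across WT 1 to 3 and 107, 287 and 105 CPM across CKO 1 to 3, with Myog as its most abundant gene through CKO 2 alone (Mylpf in the libraries labelled WT and in CKO 1, Tnnt3 in CKO 3). The endothelial list (9 of 10, Kdr not listed in the table) summed to 12.3, 21.01 and 20.3 CPM across WT 1 to 3 and 12.4, 21.7 and 19.9 CPM across CKO 1 to 3, with Egfl7 as its most abundant gene. The neutrophil list (2 of 7, without S100a9, Ngp, Ltf, Elane and Mpo) summed to 1.45, 0.750 and 1.69 CPM across WT 1 to 3 and 3.44, 5.77 and 1.73 CPM across CKO 1 to 3, with Camp as its most abundant gene (S100a8 in WT 1). By limma, 0 genes of the muscle (8 tested, 1 at an unadjusted p under 0.05), endothelial (3, 0) and neutrophil (1, 0) lists were called. The tools edgeR, DESeq2 and limma-voom also called 0, of 5, 4 and 5 muscle genes and 1 endothelial gene tested, and tested no neutrophil gene. Tnnt3 of the muscle list was called higher by limma without WT 3. CKO 2 was the highest library in each of these 3 sums. Without Myog the muscle sums were 64.5, 36.8 and 165 against 92.2, 108 and 91.9 CPM, with WT 3 highest, and without Camp the neutrophil list had reads in WT 1 only, while without Egfl7 CKO 2 was still the highest in the endothelial list. The part of these cells in the lysosomal values was not tested. No listed gene in the table was at 0 in all 6 libraries.

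**Figure D5:**
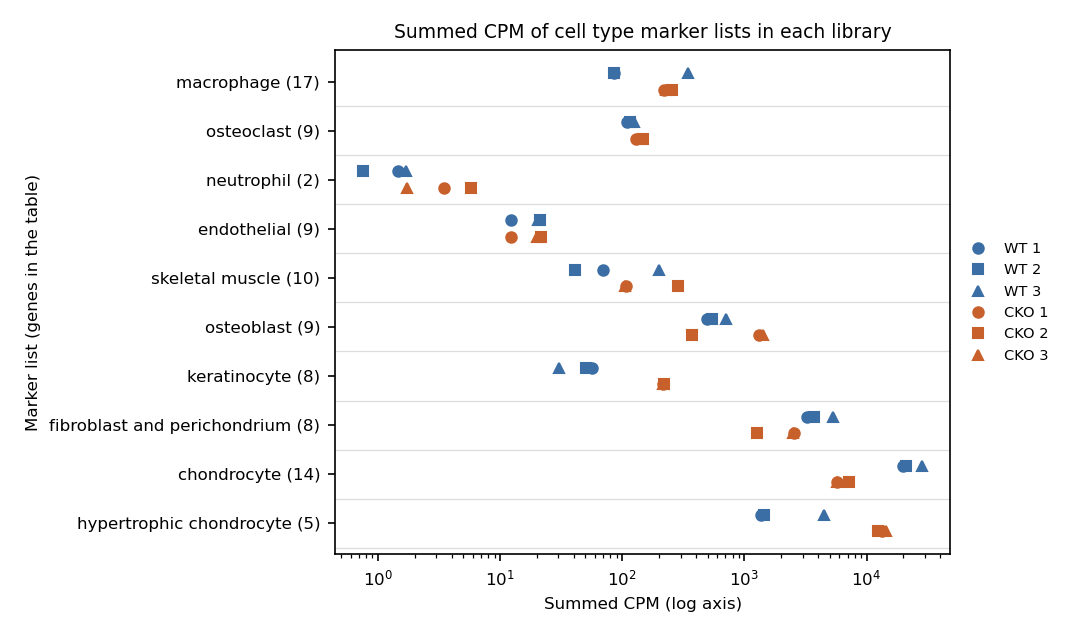
Points give the summed CPM of each marker list in each library on a log axis, with the number of genes in the table in brackets. CKO 2 stands apart from CKO 1 and CKO 3 in the osteoblast and fibroblast lists and, by Myog, in the muscle list, and WT 3 stands apart from WT 1 and WT 2 in the macrophage and hypertrophic lists.

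Some values could hold reads of other genes, because the build, annotation and strand setting of the counting are not stated in the sources used here. In GENCODE M21, near-identical copies (at least 90% identity over at least 300 bp) exist for Ctsh, Laptm4b and Cd63 (1 each), and a transcript of Mcoln1 matches 123 other genes. Exons on the same strand overlap those of another gene in Ctsl (Gm49230), Ctsd (Gm49369) and Glb1 (Tmppe). Exons of Ctsl, Ctsa, Ctsb, Ctsz, Lamp1, Hexa, Idua, Sgsh, Arsa, Arsb, Npc1, Grn and Ppt1 overlap a gene on the opposite strand. The values of these genes are uncertain to that extent. Gaa, Gla, Ctsc, Naglu, Ctsf, Psap and Laptm4a had neither copies nor overlaps.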

How the data were processed

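Poly(A) RNA of E18.5 growth plate cartilage came in 6 libraries (3 WT, 3 CKO), and their columns were found by genotype and number. The values, CPM, are as deposited by the authors. Cutadapt 2.5, HISAT2 and featureCounts 1.6.3 are named in the submitters' processing notes. The genome build and annotation are not given in the sources used here. Columns sum to 1000000, and 100% of values were whole multiples of 1 read (tolerance 0.001 reads, largest deviation 1.72e-05), so reads were recovered, 1153871 to 1454094 per library. With limma 3.58.1 in R 4.3.3, log2(CPM + 1) was modelled on genotype (lmFit, eBayes with trend) for the 12155 of 15803 genes that averaged 1 CPM or more, with Benjamini-Hochberg adjustment over these genes and no covariate.

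Alternatives were a pseudocount of 0.1 CPM, no filter, a mean of at least 10 CPM, a replicate block, each library left out, CPM rescaled by TMM, and edgeR 4.0.16 quasi-likelihood, DESeq2 1.42.0 and limma-voom on the recovered reads. Averaging CKO 1 and CKO 3 as 1 sample was chosen after seeing the data. The tests were run on simulated counts with known changes, independent libraries and a single dispersion. That setting does not cover the closeness of CKO 1 and CKO 3 or the distance of CKO 2 and WT 3. Copies were sought with BLAST 2.17.0 (90% identity, 300 bp), exons and positions come from GENCODE M21 on GRCm38, and promoters from RefSeq. Values in each library are given for members past either threshold, the 5 highest per kilobase in WT, the 3 transcription factors and the 2 nearest to the adjusted threshold. Of the other lysosomal lists, the genes called with all 6 libraries are named, at most 4 a list with the smallest p first, and of the marker lists the most abundant gene and genes at 0. Other genes of the marker lists, and genes called only under an alternative, are named for their call. Hnrnpk is given beside the labels, which its whole-gene value cannot settle. Other genes with values in each library that are outside this rule are marked in the text as chosen with their values in view. Members and lists were chosen with earlier results of these data known.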

Additional observations from a re-analysis of the deposited data

How the results depend on the processing

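The results were recomputed under 14 alternatives and 1 that was chosen after seeing the data, CKO 1 and CKO 3 averaged as 1 sample. With a replicate block, 1 lysosomal gene was higher past the adjusted threshold (Gla, against 3), and 1 of the other lysosomal genes was lower (Atp6v0a4, against 2). Same-numbered libraries share only a number, and r between the deviations of WT and CKO libraries of the same number was 0.0729, -0.208 and -0.155. With CKO 1 and CKO 3 averaged, the counts were also 1 and 1, and with DESeq2 1 other lysosomal gene was lower. With a mean of at least 10 CPM, which leaves Ctsc untested, 1 gene was higher by the criterion of the study. Leaving out 1 library at a time gave 1 to 5 genes higher and 1 to 2 lower past the adjusted threshold, and 2 to 4 higher by the criterion. It gave 17 to 28 genes without overlap (16 with all libraries, and fewer libraries overlap less by construction), and 2 to 15 other lysosomal genes higher and 0 to 4 lower. Most of the upper ends came without CKO 2, and the cause was not tested. The log2 fold change of Ctsz, near 0, ranged from -0.11 to 0.16 over the libraries left out and changed sign without WT 1 (0.02) and without CKO 2. That of Ctss ranged from -0.19 to 1.45 over the libraries left out, and it was -0.21 with edgeR and -0.23 with DESeq2, against 0.38 with limma.

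Gla, Gaa, Cstb and Cd68 kept their direction and their side of the threshold in all 15 alternatives. Further comparisons were tallied for a part of the named genes (Lamp2 and Mcoln1 were not among them), the marker lists and the ratio of summed CPM. Of these, 469 were unchanged, where a gene kept direction and call and a count or ratio changed by at most 1.5 times. For genes, 33 comparisons kept the direction and lost the call, 4 gained a call and 7 changed direction. For marker lists, 10 counts changed by more than 1.5 times. With 3 libraries per genotype and 1 read worth up to 0.867 CPM, values of genes such as Mitf, Arsb and Ids rest on a few reads.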
